A study of Mus musculus with 6 samples.

Results

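Chemokines and their receptors were examined in preparations of mouse spermatogonial stem cells set against total testicular cells. The members are all probe sets annotated to 1 gene whose symbol starts with Ccl, Cxcl, Xcl, Cx3cl, Ccr or Cxcr and a digit, with Pf4 and Cx3cr1 left out. They number 63 probe sets of 22626, for 47 genes of 12393, and comprise 32 ligand genes and 15 receptor genes. Both groups came from Stra8-CD4HAglo transgenic mice, in which a truncated promoter of the germ cell gene Stra8 drives part of human CD4 as a surface marker. The stem cell group holds 3 arrays of marker-positive cells taken out of total testicular cells with magnetic beads, with 50 males pooled for each preparation. The other group holds 3 arrays titled total testicular cells, whose source label names marker-negative cells instead, so the 2 labels differ. The age of the mice is not stated in the labels. Nothing in the labels says that replicates came from separate mice, so p-values measure the spread between these samples, which may be technical.

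Chemokines are small secreted proteins that draw cells along a gradient. The main families, CC and CXC, are named for the spacing of their first cysteines, and each ligand acts on one or several G protein-coupled receptors of the matching family. Inflammatory CC chemokines recruit monocytes and are made in large amounts by macrophages, while homeostatic chemokines guide cells in healthy tissue. In the testis, Cxcl12 from Sertoli cells acts on Cxcr4 of spermatogonia, and Ccl9 from Sertoli cells has been described as an attractant of spermatogonia that carry Ccr1.

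The promoters below, read from RefSeq (build GRCm38.p6), belong to the members that the results turn on: Ccl8, Ccl3 and Ccr1, which passed the test, and Ccl12, the member with the next smallest p and the neighbour of Ccl8. Each runs from 250 bases before the start of the gene to 50 bases after it, 5′ to 3′. Capitals mark GAGGAA (either strand, where it reads TTCCTC), a core recognised by ETS factors such as PU.1, and TATAAA on the strand shown. They lie at chr11:82114935-82115234, plus strand (Ccl8), chr11:82101595-82101894, plus strand (Ccl12), chr11:83649329-83649628, minus strand (Ccl3) and chr9:123968643-123968942, minus strand (Ccr1).
Ccl8: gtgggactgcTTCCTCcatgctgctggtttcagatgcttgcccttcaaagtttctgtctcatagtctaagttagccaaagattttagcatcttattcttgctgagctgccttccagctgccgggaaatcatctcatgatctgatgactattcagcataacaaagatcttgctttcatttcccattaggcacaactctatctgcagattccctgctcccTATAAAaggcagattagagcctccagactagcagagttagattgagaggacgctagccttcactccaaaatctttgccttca
Ccl12: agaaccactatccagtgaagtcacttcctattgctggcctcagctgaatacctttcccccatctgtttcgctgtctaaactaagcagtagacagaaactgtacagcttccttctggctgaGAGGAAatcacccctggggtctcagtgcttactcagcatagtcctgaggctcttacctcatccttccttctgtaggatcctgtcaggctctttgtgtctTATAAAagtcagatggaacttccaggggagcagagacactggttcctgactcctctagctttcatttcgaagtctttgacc
Ccl3: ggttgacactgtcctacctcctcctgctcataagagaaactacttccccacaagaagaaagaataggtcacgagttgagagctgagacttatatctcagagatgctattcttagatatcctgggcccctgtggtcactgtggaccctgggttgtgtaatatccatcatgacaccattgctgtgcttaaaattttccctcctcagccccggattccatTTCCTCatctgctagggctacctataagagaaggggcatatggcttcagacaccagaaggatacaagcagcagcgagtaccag
Ccr1: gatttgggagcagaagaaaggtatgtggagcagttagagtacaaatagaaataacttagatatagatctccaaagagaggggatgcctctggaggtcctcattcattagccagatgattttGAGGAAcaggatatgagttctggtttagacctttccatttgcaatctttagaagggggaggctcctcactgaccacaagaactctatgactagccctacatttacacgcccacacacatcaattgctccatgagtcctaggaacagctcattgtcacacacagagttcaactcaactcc
Each of the 4 held GAGGAA once, with its first base in the line 240 bases before the gene start in Ccl8, 130 in Ccl12, 33 in Ccl3 and 129 in Ccr1. TATAAA started 32 bases before the start in Ccl8 and 31 before it in Ccl12, and was not among the letters of the other 2 windows. Of 32851 promoters of the same length, 28.3% held GAGGAA and 8.3% held TATAAA. Of the 8 members wholly higher in stem cells that had a promoter sequence, GAGGAA stood in 4, the ones printed, and not in the other 4, and TATAAA stood in 5. Among the 34 member genes with a promoter sequence, 13 held GAGGAA and 9 held TATAAA. The AP-1 sequence TGANTCA stood in 8 of the 34 (7.8% of all promoters) and the kappaB consensus in 10 (8.5%), each on either strand. Members were counted by gene, with a match in any promoter of the gene, and the percentages are of single promoters. The counts and the percentages are therefore in unlike units. In the 4 windows shown, the kappaB consensus was found in Ccr1 only, 74 bases before the start and clear of GAGGAA. These are matches of letters, and binding was not measured.

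Values are log2 probe set summaries deposited by the authors, and each difference is the stem cell mean minus the mean of total testicular cells. Each gene was represented by its brightest probe set, and the test was limma over all probe sets, with p-values adjusted by the Benjamini-Hochberg method and called under 0.05. Array medians ran from 3.34 to 3.44 in stem cells and from 3.25 to 3.28 in total testicular cells, and background was set at 2.15 from probe sets for bacterial RNA, a level that 79.7% to 84.1% of an array's probe sets exceeded. The correlation between arrays was 0.970 to 0.984 within stem cells and 0.992 to 0.995 within total testicular cells. Macrophage markers moved with the groups: 13 of 19 rose and 0 fell, against 1.63% and 0.137% of all genes. Their summed log2 value was 125.8 to 154.9 in stem cells against 76.4 to 83.8 in total testicular cells. Of 14 markers of undifferentiated spermatogonia 0 passed by limma, and their sums overlapped (41.9 to 44.7 against 43.2 to 44.8). In stem cells Itga6 lay wholly higher (log2 difference 0.99), and Id4 (−0.55) and Pou5f1 (−0.35) wholly lower. These are 1 and 2 of the 14, against 13.8% and 19.2% of all genes. At an unadjusted p under 0.05, limma placed 1 higher (Itga6) and 1 lower (Zbtb16, −0.43), against 11.8% and 13.1% of all genes. Cdh1 and Lin28a of that list lay below background on all 6 arrays. In RNA from mixed cells, a change in the number of cells of a type and a change in RNA per cell cannot be told apart.

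Among the 47 genes, 3 rose in the stem cell arrays, namely the ligands Ccl8 and Ccl3 and the receptor Ccr1, and 0 fell. Ccl8 differed most, 19.8-fold, and Ccl3 and Ccr1 differed 2.43-fold and 2.27-fold as measured, with 2 of 3 total testicular cell arrays above background for each and their means at background. The share that rose was 6.38%, against 1.63% of all 12393 genes, and 0.137% of all genes fell. At an unadjusted p under 0.05, limma placed 13 members higher and 0 lower, against 11.8% and 13.1% of all genes. The stem cell values lay wholly above the others for 11 members (23.4%, against 13.8% of all genes) and wholly below for 1 (2.13%, against 19.2%). The median log2 difference of the members was 0.02, beside −0.05 over all genes. Differences of at least 1 on the log2 scale were found for 7 members, 6 ligands and 1 receptor (14.9%, against 4.58% of all genes).

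**Figure D1:**
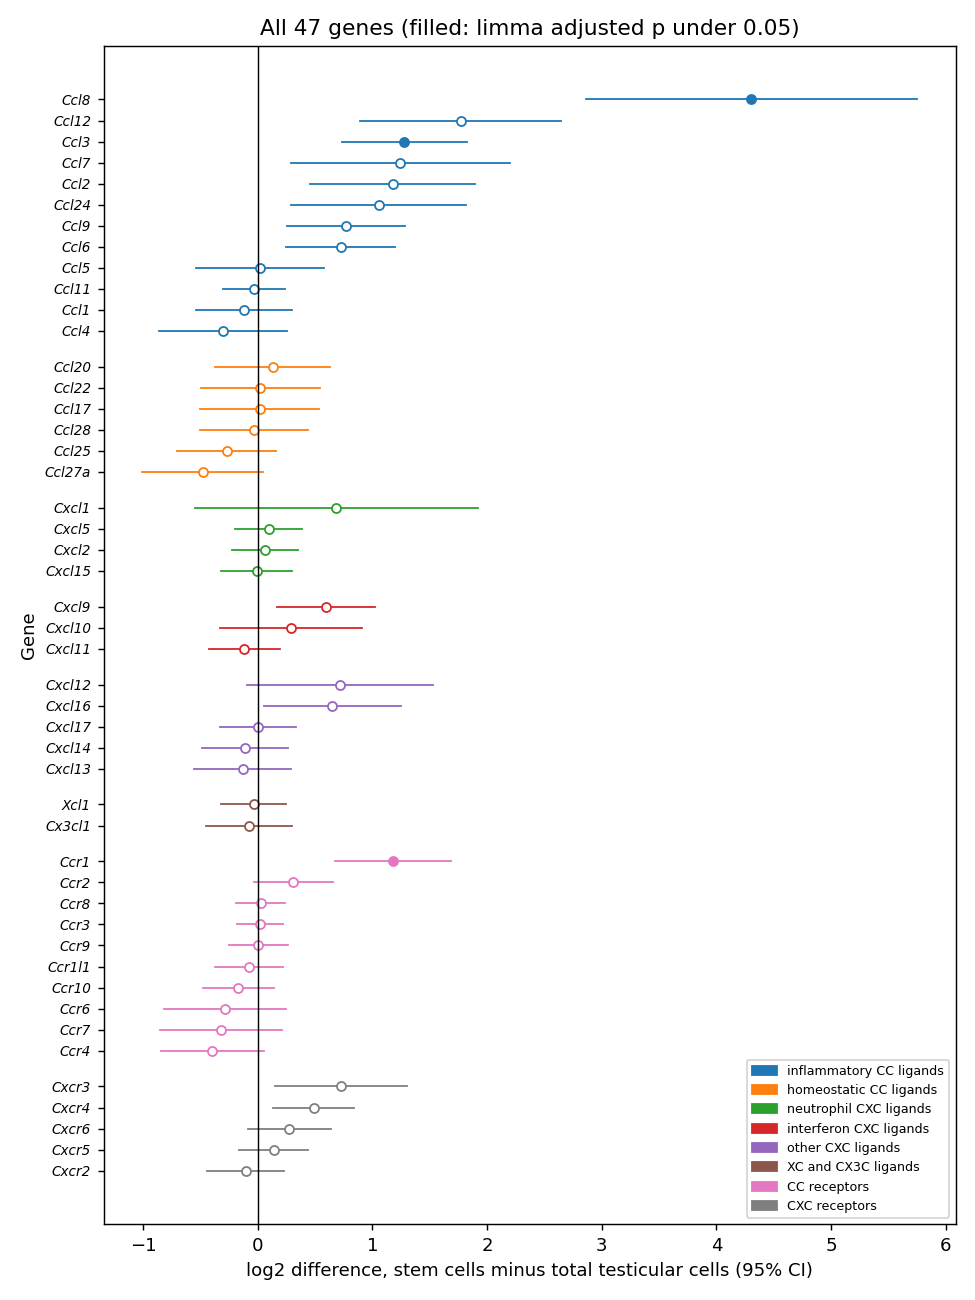
Log2 difference (stem cells minus total testicular cells, x axis) of all 47 genes with its 95% confidence interval from limma, grouped and coloured by role. Filled points are the 3 genes with an adjusted p under 0.05; Ccl8 stands at 4.31, and most homeostatic ligands and receptors lie near 0.

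Ccl8, an inflammatory CC ligand of the monocyte chemoattractant group that acts on Ccr8 in the mouse, had log2 values of 9.26, 6.16 and 7.90 in stem cells, against 3.98, 2.98 and 3.44 in total testicular cells. All 3 stem cell values lay above 6, and the groups were far apart, although the stem cell arrays spread over 3 log2 units. The means were 7.77 ± 1.56 on stem cell arrays and 3.47 ± 0.50 on total testicular cell arrays (SD, n = 3 each), and limma gave an adjusted p of 0.0199 for the log2 difference of 4.31 ± 0.64 (SE). Ccl3, which attracts monocytes and lymphocytes through Ccr1, had values of 3.98, 3.24 and 3.05 in stem cells, against 2.23, 2.29 and 1.92 in total testicular cells. Its groups did not overlap, and 1 total testicular cell value lay below background (log2 difference 1.28 ± 0.24 SE, limma adjusted p = 0.0421). Ccr1, a receptor of Ccl3, Ccl6 and Ccl9 on myeloid cells, had values of 3.90, 3.12 and 3.02 in stem cells, against 2.13, 2.16 and 2.21 in total testicular cells. The total testicular cell values stood at background, 1 of them below it, and every stem cell value above it (log2 difference 1.18 ± 0.22 SE, limma adjusted p = 0.0429). The second probe set of Ccr1 lay below background on all 6 arrays and differed by 0.04.

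These 3 calls depended on the arrays in the comparison. Without stem cell replicate 1, which was the highest of the 3 stem cell arrays for each of the 11 genes that lay wholly higher, Ccl8 differed by 3.56, Ccl3 by 1.00 and Ccr1 by 0.91, and all 3 passed together with Ccl12. Leaving out stem cell replicate 2 or 3 gave 8 members past the threshold each time. The count of all genes moved too, to 28 to 796 higher and 0 to 527 lower when 1 of the 6 arrays was left out. Without stem cell replicate 2, 44% of all calls were higher, against 92.2% with all arrays. Leaving out total testicular cell replicate 1, 2 or 3 left 0 members past it by limma, with log2 differences of 4.06 to 4.56 for Ccl8 (adjusted p = 0.0837 to 0.109), 1.16 to 1.35 for Ccl3 (0.129 to 0.221) and 1.16 to 1.20 for Ccr1 (0.141 to 0.214). The arrays ran in 3 fluidics rounds. Within round 1 (1 stem cell array, 2 others) Ccl8 differed by 5.55, Ccl3 by 1.91 and Ccr1 by 1.73, and within round 3 (1 of each) by 3.17, 0.95 and 0.96. With the round as a block the differences were 4.53, 1.50 and 1.40 (limma adjusted p = 0.00509, 0.0171 and 0.0134), and 8 members passed. Of all genes, 719 were higher and 48 lower in that fit. The fluidics module was nearly confounded with the groups. Only module 2 held an array of each, which differed by 2.71 for Ccl8, 1.32 for Ccl3 and 0.92 for Ccr1, and with the module as a block 0 members passed by limma (adjusted p = 0.226, 0.125 and 0.208).

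**Figure D2:**
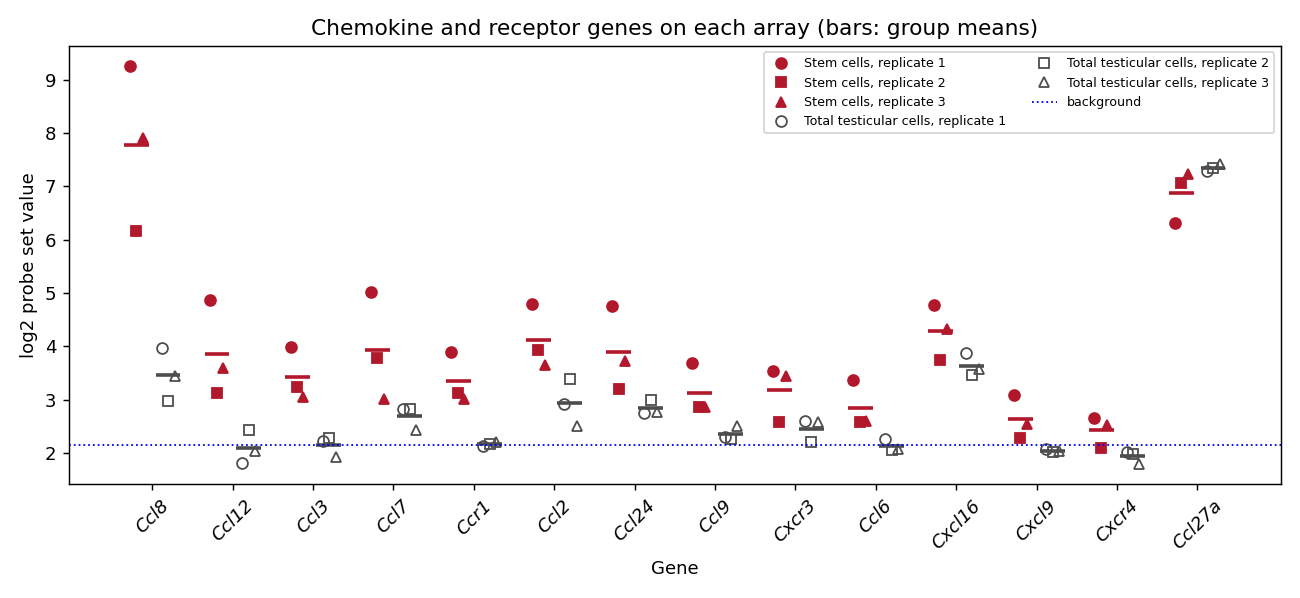
Log2 probe set value (y axis) of the 13 genes with an unadjusted p under 0.05 and of Ccl27a on each of the 6 arrays. Red filled symbols are stem cell arrays, open grey symbols total testicular cell arrays, symbol shape gives the replicate, short lines are group means and the dotted line is the background of 2.15; stem cell replicate 1 (circle) is the top stem cell array for every gene but Ccl27a, where it is the lowest.

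Of the 7 members that differed by at least 1, 6 were inflammatory CC ligands. Of 12 measured, 2 rose, 0 fell and 10 did not pass, against 1.63% higher and 0.137% lower among all genes. Their median was 0.91. In stem cells 8 of the 12 lay wholly higher, against 13.8% of all genes. Ccl12, a monocyte attractant that acts on Ccr2, had values of 4.87, 3.12 and 3.60 in stem cells, against 1.81, 2.42 and 2.04 in total testicular cells. Its groups were apart, but 2 of the total testicular cell values lay below background and the test was missed (log2 difference 1.77 ± 0.39 SE, limma adjusted p = 0.0594). Ccl12 passed without any 1 of the stem cell arrays (adjusted p = 0.0249, 0.0311 and 0.0311), and with the round as a block (1.98, adjusted p = 0.0416). It did not pass when any 1 total testicular cell array was left out (1.63 to 1.94, limma adjusted p = 0.139 to 0.247). With the module as a block it differed by 1.08. Ccl2, the main monocyte attractant and also a ligand of Ccr2, stood at 4.79, 3.93 and 3.65 in stem cells, against 2.93, 3.39 and 2.52 in total testicular cells. The lowest stem cell value lay just above the highest of the others (log2 difference 1.18 ± 0.32 SE, adjusted p = 0.0908). Ccl7, another Ccr2 ligand, stood at 5.02, 3.77 and 3.01 in stem cells, against 2.83, 2.82 and 2.42 in total testicular cells. Its stem cell values were uneven, with replicate 3 close to the other group (log2 difference 1.24, adjusted p = 0.134). Ccl2 and Ccl7 passed without stem cell replicate 3, the lowest stem cell array for both, whose removal raises the difference. Neither passed when any 1 total testicular cell array was left out.

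Ccl24, an eosinophil attractant acting on Ccr3, had values of 4.75, 3.21 and 3.73 in stem cells, against 2.76, 3.00 and 2.77 in total testicular cells. Replicate 1 stood out and replicate 2 barely cleared the other group (log2 difference 1.05, adjusted p = 0.122). Ccl9, the ligand described above for spermatogonia, had values of 3.68, 2.86 and 2.87 in stem cells, against 2.30, 2.27 and 2.52 in total testicular cells. Ccl6, a related rodent ligand of Ccr1, had values of 3.37, 2.58 and 2.61 in stem cells, against 2.26, 2.06 and 2.07 in total testicular cells. Both were wholly higher in stem cells, Ccl6 with 2 total testicular cell values below background, and neither passed (log2 difference 0.77, adjusted p = 0.104 for Ccl9, and 0.72, adjusted p = 0.103 for Ccl6). A second probe set of each differed less, by 0.24 for Ccl9 and 0.18 for Ccl6, with little signal to compare. That of Ccl6 lay below background on every array. That of Ccl9 stood at 2.37, 2.25 and 2.08 in stem cells, against 1.94, 2.17 and 1.89 in total testicular cells, around background. With the round as a block, Ccl6, Ccl7 and Ccl9 passed as well.

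Other inflammatory CC ligands did not separate the groups. Ccl4, a close relative of Ccl3, had values of 3.21, 2.34 and 2.50 in stem cells, against 3.27, 3.01 and 2.68 in total testicular cells. Ccl4 thus lay above background in both groups and its groups overlapped (log2 difference −0.30, 95% confidence interval −0.86 to 0.25, adjusted p = 0.486). Ccl5, made by T cells and macrophages, had values of 2.57, 2.65 and 3.44 in stem cells, against 2.66, 2.77 and 3.17 in total testicular cells. Replicate 3 was the highest array in each group (log2 difference 0.02, interval −0.54 to 0.58). Ccl1, a Ccr8 ligand, differed by −0.12, and the eosinophil attractant Ccl11 lay below background on all 6 arrays.

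All inflammatory CC ligand genes measured here except Ccl24 lie side by side in 2 groups on mouse chromosome 11, which carries 14 of the 47 members. In the RefSeq gene order, with at most 3 other protein-coding genes between members, 1 group holds Ccl2, Ccl7, Ccl11, Ccl12, Ccl8 and Ccl1 with log2 differences of 1.18, 1.24, −0.03, 1.77, 4.31 and −0.12 in that order. The highest member, Ccl8, thus lies between Ccl12 and Ccl1, and the 2 members near 0 are Ccl11 and Ccl1. A second group holds Ccl5, Ccl9, Ccl6, Ccl3 and Ccl4, with 0.02, 0.77, 0.72, 1.28 and −0.30. Of these 11 genes 7 lay wholly higher in stem cells, against 13.8% of all genes. They are 7 of the 11 such members in all. The receptor genes Ccr9, Cxcr6, Ccr1, Ccr1l1, Ccr3 and Ccr2 on chromosome 9 differed by 0.01, 0.28, 1.18, −0.08, 0.02 and 0.31, and the direct neighbour of Ccr1 in this set, Ccr1l1, overlapped between the groups. Chemokine genes of these clusters are close in sequence, and whether probe sets of one also report another was not tested.

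**Figure D3:**
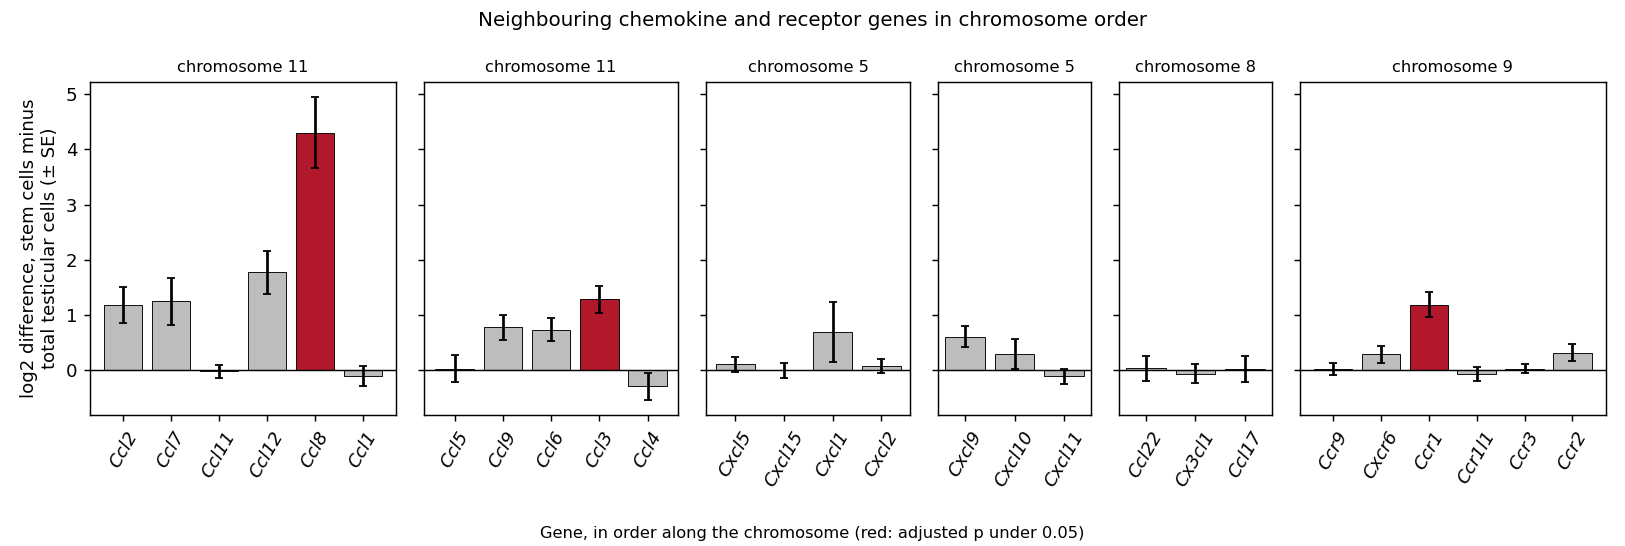
Log2 difference (stem cells minus total testicular cells, y axis, ± SE from limma with n = 3 arrays per group) of members that neighbour each other, in gene order along chromosomes 11, 5, 8 and 9. Red bars passed an adjusted p of 0.05: these are Ccl8, next to Ccl12 (1.77) and Ccl1 (−0.12), Ccl3, next to Ccl6 (0.72) and Ccl4 (−0.30), and Ccr1, next to Cxcr6 (0.28) and Ccr1l1 (−0.08).

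Homeostatic CC ligands showed no change that passed: of 6 measured, 0 rose and 0 fell by limma, with 0 at an unadjusted p under 0.05 and differences from −0.48 to 0.13. Ccl27a, a skin-homing ligand of Ccr10, had values of 6.31, 7.07 and 7.23 in stem cells, against 7.28, 7.35 and 7.41 in total testicular cells. It was the 1 member wholly lower in stem cells, with replicate 1 lowest (log2 difference −0.48 ± 0.23 SE, adjusted p = 0.249). The 2 probe sets shared by Ccl27a with near-identical copies such as Ccl27b differed by −0.46 and −0.72 (adjusted p = 0.283 and 0.118), so these copies cannot be told apart. Ccl25, which guides thymocytes and gut lymphocytes through Ccr9, had values of 3.60, 3.73 and 3.84 in stem cells, against 4.26, 3.93 and 3.78 in total testicular cells. Its groups overlapped (log2 difference −0.27, adjusted p = 0.418). Ccl17 and Ccl22, the ligands of Ccr4, differed by 0.02 and 0.02, Ccl20, the ligand of Ccr6, by 0.13, and Ccl28, a mucosal ligand of Ccr10, by −0.03. Probe sets that report several genes at once put Ccl21 copies at 0.21 and Ccl19 with its copies at −0.26 (adjusted p = 0.420 and 0.289).

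CXC ligands did not pass either. Cxcl16, a membrane-anchored ligand of Cxcr6 that macrophages also use as a scavenger receptor, had values of 4.77, 3.74 and 4.33 in stem cells, against 3.87, 3.46 and 3.57 in total testicular cells. The lowest stem cell value lay inside the other group (log2 difference 0.65, adjusted p = 0.182), while its second probe set differed by 0.71 (adjusted p = 0.104). Cxcl12, the niche ligand of Cxcr4, had values of 5.37, 4.61 and 3.79 in stem cells, against 4.02, 4.08 and 3.51 in total testicular cells. Stem cell replicate 1 was highest and replicate 3 lay among the other group (log2 difference 0.72, adjusted p = 0.261). Its second probe set, at 3.35, 3.24 and 3.39 in stem cells against 3.05, 2.67 and 2.72 in total testicular cells, kept the groups apart (0.51, adjusted p = 0.122). Cxcl12 passed without stem cell replicate 3, its lowest stem cell array (1.12, adjusted p = 0.0476). It did not pass when any 1 total testicular cell array was left out (0.54 to 0.82, limma adjusted p = 0.355 to 0.556).

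Cxcl1, a neutrophil attractant acting on Cxcr2, had values of 4.92, 5.24 and 3.01 in stem cells, against 3.77, 4.33 and 3.01 in total testicular cells. Replicate 2 was the highest and replicate 3 the lowest in both groups, and the groups overlapped (log2 difference 0.68 ± 0.55 SE, adjusted p = 0.478). Without stem cell replicate 3 the log2 difference of Cxcl1 was 1.37 (adjusted p = 0.0488), and with the round as a block 1.26 (0.0472). With any 1 total testicular cell array left out it was 0.34 to 1.0 (limma adjusted p = 0.416 to 0.822). The related Cxcl2 lay below background on all 6 arrays, at 2.09, 1.82 and 1.81 on stem cell arrays and 1.62, 1.96 and 1.96 on total testicular cell arrays, as did Cxcl5. Cxcl15 differed by −0.01. Among the 3 interferon-induced ligands of Cxcr3, Cxcl9 had values of 3.09, 2.29 and 2.54 in stem cells, against 2.07, 2.02 and 2.03 in total testicular cells. The total testicular cell values were all below background and the stem cell values above it, and the stem cell mean was at least 1.41-fold higher, but the test was missed (log2 difference as measured 0.60, adjusted p = 0.119). Cxcl10 had values of 3.28, 3.20 and 2.45 in stem cells, against 2.55, 3.17 and 2.34 in total testicular cells, with overlapping groups (log2 difference 0.29, adjusted p = 0.553), and Cxcl11 differed by −0.12. Cxcl14, a ligand of epithelia, had values of 2.51, 2.13 and 2.21 in stem cells, against 2.63, 2.11 and 2.44 in total testicular cells, again overlapping. Cxcl13 and Cxcl17 differed by −0.13 and 0.00. Xcl1, a lymphocyte product, differed by −0.03. Cx3cl1, the membrane-bound ligand fractalkine, had values of 2.65, 2.99 and 3.10 in stem cells, against 3.04, 2.95 and 2.96 in total testicular cells and differed by −0.07 (interval −0.45 to 0.30), with its other probe sets at −0.09 and −0.02.

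Of 15 receptor genes, 1 rose (Ccr1) and 0 fell by limma (6.67% and 0%, against 1.63% and 0.137% of all genes). At an unadjusted p under 0.05, 3 were higher (20.0%, against 11.8% of all genes). In total testicular cells the mean of each of the 15 was under 2 log2 units over background. The same held for 31 of the 32 ligands and for 6680 of all 12393 genes. Cxcr4, the receptor of Cxcl12, had values of 2.65, 2.09 and 2.53 in stem cells, against 2.03, 1.98 and 1.79 in total testicular cells. The total testicular cell values and that of stem cell replicate 2 were below background, so no fold is given (log2 difference as measured 0.49, adjusted p = 0.124). Cxcr3, carried by activated T cells, had values of 3.53, 2.58 and 3.45 in stem cells, against 2.59, 2.21 and 2.57 in total testicular cells. Stem cell replicate 2 lay inside the other group (log2 difference 0.73, adjusted p = 0.140). Without stem cell replicate 2, Cxcr4 (0.66, adjusted p = 0.0363), Cxcl9 (0.77, adjusted p = 0.0479) and Ccl24 (1.40, adjusted p = 0.0423) passed, as did Cxcr3. Replicate 2 was the lowest stem cell array for each of these genes, so leaving it out raises the difference. With any 1 total testicular cell array left out, 0 members passed by limma.

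Ccr2, the receptor of monocytes for Ccl2, Ccl7 and Ccl12, had values of 2.47, 2.07 and 1.95 in stem cells, against 2.05, 1.80 and 1.70 in total testicular cells. One stem cell value and none of the others exceeded background, and its 3 probe sets differed by 0.16 to 0.31 with no pass. Cxcr6, the receptor of Cxcl16, had values of 2.13, 1.81 and 2.40 in stem cells, against 1.97, 1.60 and 1.94 in total testicular cells and differed by 0.28 (adjusted p = 0.327). Ccr3 and Ccr8, the receptors of Ccl24 and of Ccl8, lay below background on all 6 arrays. The lymphocyte and dendritic cell receptors Ccr4, Ccr6 and Ccr7 were measured above background in both groups, with log2 differences of −0.39, −0.28 and −0.32 and overlapping groups. Ccr9, Ccr10, Ccr1l1, Cxcr2 and Cxcr5 differed by −0.17 to 0.14.

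Set beside their receptors, the ligands of Ccr1 (Ccl3, Ccl6 and Ccl9) had log2 differences of 1.28, 0.72 and 0.77 with Ccr1 at 1.18. Those of Ccr2 (Ccl2, Ccl7 and Ccl12) had 1.18, 1.24 and 1.77 with Ccr2 at 0.31. For Cxcl12 and Cxcr4 the differences were 0.72 and 0.49, for Cxcl16 and Cxcr6 they were 0.65 and 0.28, and for Ccl25 and Ccr9 they were −0.27 and 0.01. Only Ccl3 and Ccr1 among these pairs held a ligand and a receptor that both rose. Signal near background limits these values, of ligands and receptors alike.

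The genes that work with chemokine receptors were taken from 4 lists with 63 measured genes, of which 2 rose and 0 fell (3.17% and 0%, against 1.63% and 0.137% of all genes). Arhgdib, a cytoskeleton regulator of leukocytes, stood at 7.99, 6.20 and 5.84 on stem cell arrays, against 3.58, 3.88 and 3.04 on total testicular cell arrays. Every stem cell value lay well above the others (log2 difference 3.18 ± 0.49 SE, limma adjusted p = 0.0234). Rac1, a GTPase that drives membrane protrusion, stood at 9.12, 7.86 and 7.64 on stem cell arrays, against 6.46, 6.49 and 6.34 on total testicular cell arrays. Its log2 difference was 1.78 (adjusted p = 0.0411), with 1.03 and 0.09 for its other probe sets, the last below background on every array. Both stand in the list of 24 receptor signalling genes (2 rose, 0 fell, 22 did not pass, median 0.41). In that list Rac2, the leukocyte form, differed by 1.20 (limma adjusted p = 0.0650). Gnai2, the G protein subunit used by chemokine receptors, differed by 1.14 (limma adjusted p = 0.0846). Its second probe set differed by 0.48 (adjusted p = 0.262), with overlapping groups. At an unadjusted p under 0.05, 19 of the 63 were higher and 2 lower by limma (30.2% and 3.17%, against 11.8% and 13.1% of all genes).

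In the 14 genes that switch receptors off, 0 passed by limma and 4 were higher at an unadjusted p under 0.05 (median 0.22). The shares of all genes at that p, for this list and the next 2, were 11.8% higher and 13.1% lower. The regulator of G protein signalling Rgs2 differed by 1.47 (limma adjusted p = 0.0972), and its second probe set by 1.31. Rgs18 differed by 1.46 as measured (limma adjusted p = 0.103), and its second probe set by 1.20. It lay below background on every total testicular cell array, so the stem cell mean was at least 1.89-fold higher. Its stem cell values were uneven, at 4.27, 2.74 and 2.18. Of 16 genes for presenting or cleaving chemokines, 0 passed by limma and 5 were higher at that p (median 0.12), among them the proteoglycan Gpc4 (0.94, adjusted p = 0.0651) and Adam10, a protease that sheds Cxcl16 (1.26, adjusted p = 0.0670, its other probe sets −0.09 and 1.07). Among 9 atypical and related receptors, 0 passed by limma and 1 was lower at that p, Cmklr1, the chemerin receptor of macrophages (−0.64, adjusted p = 0.108). The complement receptor C5ar1 differed by 0.26 (adjusted p = 0.294), and the median of the list was 0.03. The scavenging receptors Ackr2 and Ackr3 differed by −0.13 and 0.06. Without any 1 total testicular cell array 0 partner genes passed by limma. Without stem cell replicate 3 there were 11, without replicate 1 there were 5 and without replicate 2 there were 6. Over these comparisons 28 to 796 of all genes passed as higher.

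Several marker lists were set beside the chemokine values. On stem cell arrays 1, 2 and 3 the median deviation of a list from the other group's mean was 1.58, 0.47 and 0.54 for the inflammatory CC ligands and 4.82, 3.46 and 3.01 for the 19 macrophage markers. Replicate 1 was thus the highest array for both lists. The macrophage genes Aif1 (−0.11) and Msr1 (0.02) were near 0, and Cd163, a marker of tissue macrophages, was below background on every total testicular cell array and above it on every stem cell array. In the Leydig cell list the same medians were 2.91, 1.86 and 0.82. Of its 5 genes 0 passed by limma and 5 were higher at an unadjusted p under 0.05 (sums 32.5 to 43.6 against 25.8 to 31.2). In the Sertoli cell list the medians were 0.26, 0.41 and 0.62. Of its 11 genes 1 rose, Clu, and 5 were higher at that p (sums 59.6 to 62.4 against 54.0 to 56.4). Among all genes 1.63% rose and 11.8% were higher at that p. Of 8 spermatocyte markers 0 passed by limma, and 1 was higher and 2 lower at that p, against 11.8% and 13.1% of all genes. In stem cells 3 of them were wholly lower, against 19.2% of all genes (sums 61.3 to 63.9 against 64.2 to 64.7). Of 8 spermatid markers 0 passed by limma or at that p, and 0 lay wholly apart (sums 92.5 to 95.5 against 93.7 to 96.2).

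Lists of other leukocytes held 1 gene that rose, the B cell gene Ighm. Of all genes 1.63% rose, and 11.8% were higher at an unadjusted p under 0.05, the shares to set beside each list below. Of 8 neutrophil markers 0 passed by limma, as at an unadjusted p (sums 17.3 to 19.3 against 17.6 to 18.7). Of 12 T and NK cell markers 0 passed and 1 was higher at an unadjusted p under 0.05 (sums 33.0 to 36.0 against 33.5 to 34.5), with Gzmb below background on all arrays. Of 7 B cell markers 1 rose, with sums of 19.5 to 21.7 against 18.0 to 19.4 and Blk below background throughout. Of 6 mast cell markers 0 passed and 1 was higher at that p (sums 14.7 to 15.1 against 13.6 to 14.8). Of 11 endothelial markers 0 passed by limma or at an unadjusted p under 0.05. The part of any of these cell types in the chemokine values was not tested.

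**Figure D4:**
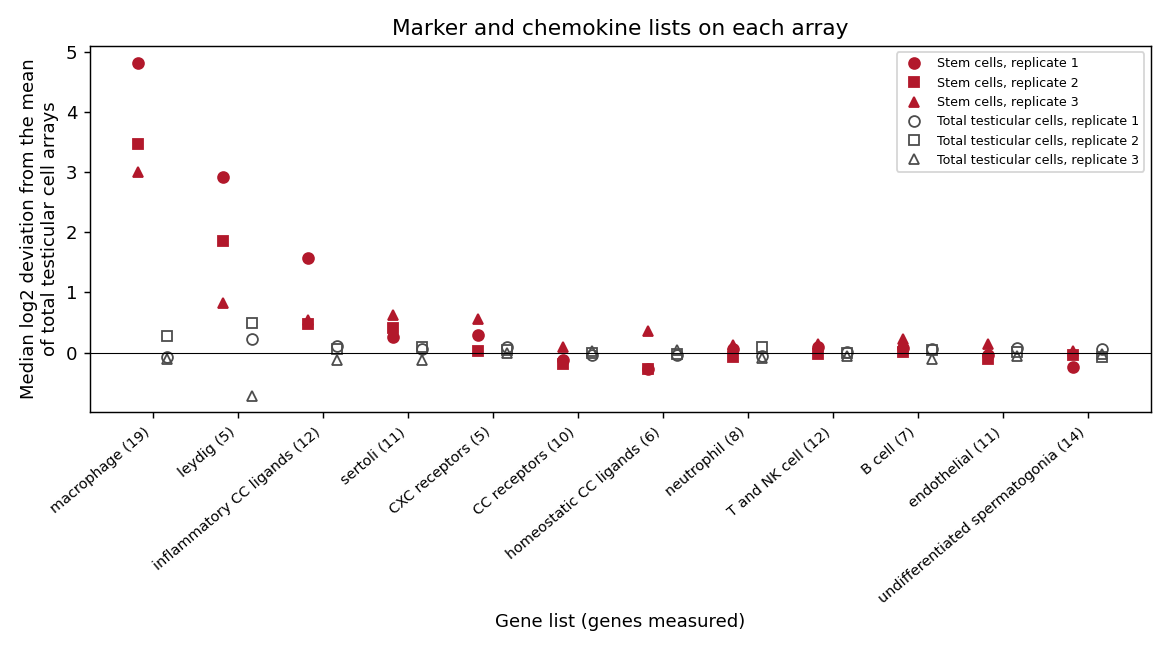
Median over each list of its genes' log2 deviation from their total testicular cell mean (y axis) on every array, with the number of genes measured in brackets. Red filled symbols are stem cell arrays and open grey symbols total testicular cell arrays; macrophage markers reach 4.82, inflammatory CC ligands 1.58, and the neutrophil, T and NK cell and B cell lists run from −0.08 to 0.22 on stem cell arrays.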

How the data were processed

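Total RNA of 6 samples was hybridised to 1 Mouse430A_2 array each, per the labels' protocols and the file headers. The log2 probe set values were used as the authors deposited them. MAS5 and RMA stand in the submitters' processing notes without version or role, so the background correction and normalization are not given in the sources used here. The log2 scale follows from the range of the values (1.20 to 13.2). Of 22690 probe sets, 64 controls were left out, and 20380 of the 22626 tested had 1 gene in the platform annotation, 691 several and 1555 none. Identifiers of 20351 were found in the RefSeq gene table (GRCm38.p6), which changed 0 symbols. The arrays' number limits the precision.

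Stem cells were compared with total testicular cells in limma 3.58.1 (R 4.3.3; lmFit, eBayes with an intensity trend, two-sided; 4 residual and 5.21 prior degrees of freedom), adjusted over all probe sets. Background was the 95 percent point of the means of 27 probe sets for bacterial RNA. Where a whole group lay below it, a fold given is a bound against the lowest signal above background. Fluidics rounds are runs begun less than 15 minutes apart, per the file headers. The members, gene lists and rule for named genes were chosen with earlier results of these data known. Per-array values were given for members past the threshold, members with an unadjusted p under 0.05 and groups apart, and 22 listed members whatever their result; of partner lists, genes past the threshold or else the 2 of smallest p. Ccl27a, Cxcr3 and the partner genes Rac2, Gnai2, Ackr2 and Ackr3 were chosen after their values were seen. Arrays were simulated with independent normal noise and the spread of these 22626 probe sets, pooled over both groups. On them the comparison recovered 55.2% of 67 probe sets changed by 1 (log2), 94.0% of 67 changed by 2 and 100% of 66 changed by 4. The measured stem cell arrays varied more than the others, which the simulation leaves out, so these shares need not hold for the data. Alternatives covered scaling, dim probe sets, replicate number, fluidics round and module (the module chosen after seeing the data), the variance model, the probe set that stands for a gene, and each array left out.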

Additional observations from a re-analysis of the deposited data

How the results depend on the processing

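Ccl8, Ccl3 and Ccr1 all remained past the threshold with dim probe sets left out, under quantile normalization or median centring, and with robust empirical Bayes, array weights (which added Ccl12) and the probe set of largest variance. In 433 other values of the named genes, 373 kept their direction and side of the threshold, 24 newly passed, 19 no longer passed and 17 changed sign. Median centring and centring on hybridization controls put the median of all genes at −0.17 and −0.22, against −0.05 as deposited. The cause of these changes was not tested.

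Counts of members higher, partners higher, all genes higher and all genes lower (3, 2, 202 and 17 as reported) were 7, 7, 516 and 221 with centring on hybridization controls, whose calls were 70.0% higher instead of 92.2%. They were 8, 10, 719 and 48 with the fluidics round as a block, 1, 0, 80 and 2 without intensity trend, and 1, 1, 97 and 3 with the mean of a gene's probe sets. They were 0, 0, 0 and 0 with the fluidics module as a block, and likewise 0 by the ordinary unmoderated test. Array weights gave 10 partners and 524 genes higher and 79 lower, median centring 46 lower and the probe set of largest variance 27 lower. An adjusted p under 0.1 gave 5 members, a count not set here beside that of all genes at the same threshold. The members' median was −0.14 with centring on hybridization controls. None of these alternatives gave a member that fell.

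With the replicate number as a block the same counts were 8, 10, 644 and 93. The labels give samples of 1 number no shared origin, and their deviations from the group means correlated at −0.01, 0.01 and 0.30 for numbers 1, 2 and 3 over 22626 probe sets, so the numbers were not taken to pair the samples, although number 3 deviated together. Leaving out 1 array gave 0 to 8 members higher, 0 to 11 partners higher, 28 to 796 genes higher and 0 to 527 lower, and a members' median of −0.0068 to 0.14.

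The sign changed for members near 0 that never passed. Ccl5 differed by −0.026 (quantile normalization), −0.091 (median centring), −0.14 (centring on hybridization controls), −0.25 (round as a block) and −0.52 (module as a block), and Cxcl2 by −0.048 (median centring), −0.10 (hybridization controls) and −0.14 (module). With the module as a block Cx3cl1 differed by 0.036 and Cxcr6 by −0.12. Leaving out 1 array gave −0.25 to 0.18 for Ccl5, −0.049 to 0.12 for Cxcl2, −0.17 to 0.062 for Cx3cl1 and −0.25 to 0.0079 for Cxcl14. Signal limits the values of 14 members, 7 ligands and 7 receptors, that averaged below background in total testicular cells.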
